A study of Homo sapiens with 35 samples.

Results

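The 34 genes described here encode 2-oxoglutarate-dependent oxygenases. They were grouped as 20 JmjC demethylases and hydroxylases, 4 hydroxylases of hypoxia-inducible factor (HIF), and 10 hydroxylases of the collagen type. The transmembrane prolyl 4-hydroxylase P4HTM was counted with the last group. The 34 genes were taken from a list of such enzymes, chosen with earlier results of these data known. Their share of calls beside that of all genes is therefore a description, not a test. All 34 are present among the 16103 genes of the bulk RNA-seq table. The cells were H1, an established human embryonic stem cell line, carried towards definitive endoderm, and each group had 2 libraries.

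At 6 h and 24 h, unsorted cells had received JNJ+CHIR, BRD+CHIR, AA+CHIR, CHIR alone or BRD without CHIR, and at 6 h also no factor (the group labelled None). At 72 h, cells labelled as sorted definitive endoderm came from JNJ+CHIR, BRD+CHIR, BRD+LoAA+CHIR or AA+CHIR on the first day, followed by the same factor without CHIR (called the JNJ, BRD, BRD+LoAA and AA arms below). CHIR is CHIR99021, an inhibitor of GSK3 that turns on Wnt signalling, and AA matches the protocol's Activin A, used at 100 ng/ml with 3 µM CHIR99021. JNJ and BRD are known here only by these names, and the dose of LoAA is not given. A 36 h, a 72 h endoderm and a 72 h mesoderm library of single cells, 1 each, were read beside the bulk data. The untreated samples at 24 h were not analysed here.

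These enzymes use molecular oxygen and 2-oxoglutarate, with iron in the active site, to hydroxylate a protein, and a hydroxylated methyl group on histone lysine falls away, which is how JmjC demethylases erase methyl marks. EGLN enzymes hydroxylate prolines of HIF alpha subunits and so mark them for VHL-dependent destruction, while P4HA, PLOD and P3H enzymes modify procollagen in the endoplasmic reticulum. Several of their genes, among them KDM3A, EGLN1, P4HA1 and PLOD2, are textbook targets of HIF itself.

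Levels are given in CPM (counts per M, or mega, counts) after TMM scaling over the 30 libraries, and changes as log2 ratios with their standard error (SE) from edgeR's quasi-likelihood test, with p-values adjusted by Benjamini and Hochberg over all genes tested. A change was called at an adjusted p under 0.05. Where groups of 2 libraries are said to stand apart or not to overlap, this describes their values and is no test. The share of all genes that stand apart in this way was not counted. Libraries held 4.57 M to 49.5 M counts. Nothing in the labels ties the replicates to separate cultures, so the p-values measure the spread between libraries, which may be technical. In bulk RNA, a lower share of cells of a given type and less RNA per cell cannot be told apart.

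Library titles carry 3 running numbers that follow time: 33 at 6 h, 38 at 24 h and 46 at 72 h, with the BRD-alone libraries of 6 h and 24 h also in series 46. MTRNR2L12 took 6.18% to 10.8% of counts in series 46, against 0.301% to 0.653% in series 33 and 0.166% to 0.209% in series 38. Stage and title series therefore cannot be told apart in any comparison between times below, apart from BRD alone, whose times share a series. All libraries carry the label of definitive endoderm. SOX17, an endoderm marker, averaged 231 to 391 CPM in the sorted 72 h groups and 0 to 1.01 CPM in the 6 h and 24 h groups. By this marker the 72 h cells alone met the label. Of 8 endoderm markers, SOX17 among them, 7 were higher and none lower at 24 h than at 6 h with JNJ+CHIR. The counts were 7 and 1 with AA+CHIR, 6 and 0 with CHIR, 6 and 1 with BRD+CHIR, and 1 and 2 in BRD alone. Of all genes, 36.6% to 41.8% were called in the arms with CHIR and 11.7% in BRD alone.

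The promoters of the 4 genes that head the JNJ response are shown because HIF binds a short core, ACGTG or GCGTG, in the genes it turns on. Each window runs from 250 bases before to 50 bases after the RefSeq start (assembly GRCh38.p14), is written 5′ to 3′ on the strand of the gene, and has matches to either core on either strand in capitals (CACGT and CACGC are the cores read on the other strand).
KDM3A, chr2:86441121-86441420, plus strand: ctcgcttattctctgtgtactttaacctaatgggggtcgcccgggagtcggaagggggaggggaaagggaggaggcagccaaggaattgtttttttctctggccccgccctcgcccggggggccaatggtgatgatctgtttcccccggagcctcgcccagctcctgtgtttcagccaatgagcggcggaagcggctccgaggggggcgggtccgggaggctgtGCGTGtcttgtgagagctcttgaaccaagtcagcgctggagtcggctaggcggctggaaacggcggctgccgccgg
EGLN1, chr1:231422238-231422537, minus strand: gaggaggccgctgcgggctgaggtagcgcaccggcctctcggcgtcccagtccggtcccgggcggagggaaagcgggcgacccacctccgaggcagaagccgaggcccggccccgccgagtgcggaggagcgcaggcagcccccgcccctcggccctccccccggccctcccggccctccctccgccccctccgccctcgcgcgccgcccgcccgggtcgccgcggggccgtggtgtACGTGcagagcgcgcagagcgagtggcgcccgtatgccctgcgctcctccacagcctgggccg
P4HA1, chr10:73096817-73097116, minus strand: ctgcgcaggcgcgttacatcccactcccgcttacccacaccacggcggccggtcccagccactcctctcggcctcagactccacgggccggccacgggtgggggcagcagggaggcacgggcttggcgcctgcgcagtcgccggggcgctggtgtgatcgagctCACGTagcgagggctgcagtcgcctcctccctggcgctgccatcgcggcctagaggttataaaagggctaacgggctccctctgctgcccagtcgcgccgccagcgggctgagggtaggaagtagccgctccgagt
PLOD2, chr3:146161135-146161434, minus strand: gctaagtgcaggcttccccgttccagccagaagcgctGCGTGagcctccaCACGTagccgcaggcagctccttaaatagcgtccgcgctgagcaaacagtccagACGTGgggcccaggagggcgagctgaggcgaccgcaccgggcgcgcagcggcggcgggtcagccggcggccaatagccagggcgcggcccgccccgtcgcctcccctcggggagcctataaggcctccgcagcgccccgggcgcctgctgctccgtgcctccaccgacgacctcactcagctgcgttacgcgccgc
KDM3A carried its match 26 bases before the start, EGLN1 13 bases before, P4HA1 86 bases before, and PLOD2 carried 3, at 213, 200 and 146 bases before. Of the 34 genes, 30 had a promoter in the RefSeq table, and 26 of their 42 windows (61.9%) held a match. The share was 58.2% over the 18236 windows of genes in the bulk table and 48.4% over all 35116 windows, so the core is common in windows of this length and its presence is a description only.

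JNJ with CHIR was set against CHIR alone to ask what the compound adds. After 24 h, PLOD2, KDM3A, P4HA1 and EGLN1 were higher with JNJ, 4 of 33 members tested and none lower, where 0.154% of all genes were called. After 6 h only KDM3A was called, where 0.0202% of all genes were. The 33 members had a median log2 change of 0.09 at 24 h and 0.05 at 6 h, beside 0 for all genes at both times. The spread between replicates was larger at 24 h. The edgeR common coefficient of variation was 0.406 there, against 0.14 at 6 h and 0.165 at 72 h. With JNJ+CHIR, 298 genes at 24 h had 0 counts in a replicate and 50 or more in the other, against 13 at 6 h. With CHIR they numbered 156 and 16. A low share of genes called at 24 h, here and below, therefore does not show that few genes changed. The fit over all libraries called 286 genes for this 24 h comparison.

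KDM3A removes mono- and dimethylation from lysine 9 of histone H3. At 6 h it stood at 84.9 and 85.4 CPM with JNJ+CHIR, against 37 and 43.2 CPM with CHIR. The JNJ libraries lay above those of every other CHIR-treated or untreated group of that time. BRD-alone cells of 6 h, from title series 46, averaged more, at 96.5 CPM. They also averaged more than JNJ+CHIR in EGLN1 (29.9 against 27 CPM), P4HA1 (78.1 against 49.6 CPM) and PLOD2 (81.6 against 35.3 CPM). Treatment and title series cannot be told apart in these gaps. Over CHIR, the log2 change of KDM3A was 1.09 (SE 0.14, 95% interval 0.8 to 1.38, adjusted p = 0.00328). The call was lost without replicate 1 of CHIR (log2 0.98, adjusted p = 0.168) and without replicate 2 of JNJ+CHIR (log2 1.09, adjusted p = 0.0503). At 24 h KDM3A reached 132 and 146 CPM with JNJ+CHIR, against 79.4 and 70.6 CPM with CHIR, and the groups did not overlap (log2 0.89, SE 0.15, adjusted p = 0.0188).

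EGLN1 encodes PHD2, the main oxygen sensor among the HIF prolyl hydroxylases. Its 6 h values were 26.7 and 27.3 CPM with JNJ+CHIR, against 13 and 13.8 CPM with CHIR. The groups stood apart, yet the change missed the threshold in edgeR (log2 1.02, SE 0.18, interval 0.64 to 1.4, adjusted p = 0.0721), and DESeq2 gave an adjusted p of 0.00357. At 24 h it stood at 60.5 and 50.9 CPM with JNJ+CHIR, against 20.2 and 23.4 CPM with CHIR (log2 1.35, SE 0.24, adjusted p = 0.0342). EGLN2, the PHD1 gene, EGLN3, the PHD3 gene, and HIF1AN, whose product hydroxylates an asparagine of HIF, were not called. EGLN3 averaged less with JNJ+CHIR than with CHIR at 24 h (11.2 and 13.6 CPM) and more at 6 h (27.6 and 19.1 CPM). EGLN2 had 47 and 47.8 CPM with JNJ+CHIR and 51.8 and 38.5 CPM with CHIR at 24 h. Annotated readthrough transcripts share the EGLN2 locus, so its level is less certain. HIF1AN kept to 58.8 to 94.1 CPM over all 30 libraries, the narrowest relative range of the 4 HIF hydroxylases.

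P4HA1 is a catalytic subunit of collagen prolyl 4-hydroxylase. At 6 h it had 47.2 and 51.9 CPM with JNJ+CHIR, against 41.4 and 45.8 CPM with CHIR, a small gap with an interval on both sides of 0 (log2 0.19, interval -0.1 to 0.48). At 24 h the values were 152 and 159 CPM with JNJ+CHIR, against 78.2 and 70.4 CPM with CHIR (log2 1.07, SE 0.19, adjusted p = 0.0287). PLOD2 hydroxylates lysines in collagen telopeptides, which later form crosslinks. It had 40.1 and 30.4 CPM with JNJ+CHIR and 30 and 29.5 CPM with CHIR at 6 h (log2 0.25, interval -0.08 to 0.58). At 24 h it reached 180 and 232 CPM with JNJ+CHIR, against 84.1 and 87.6 CPM with CHIR (log2 1.26, SE 0.14, adjusted p = 0.000391).

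**Figure D1:**
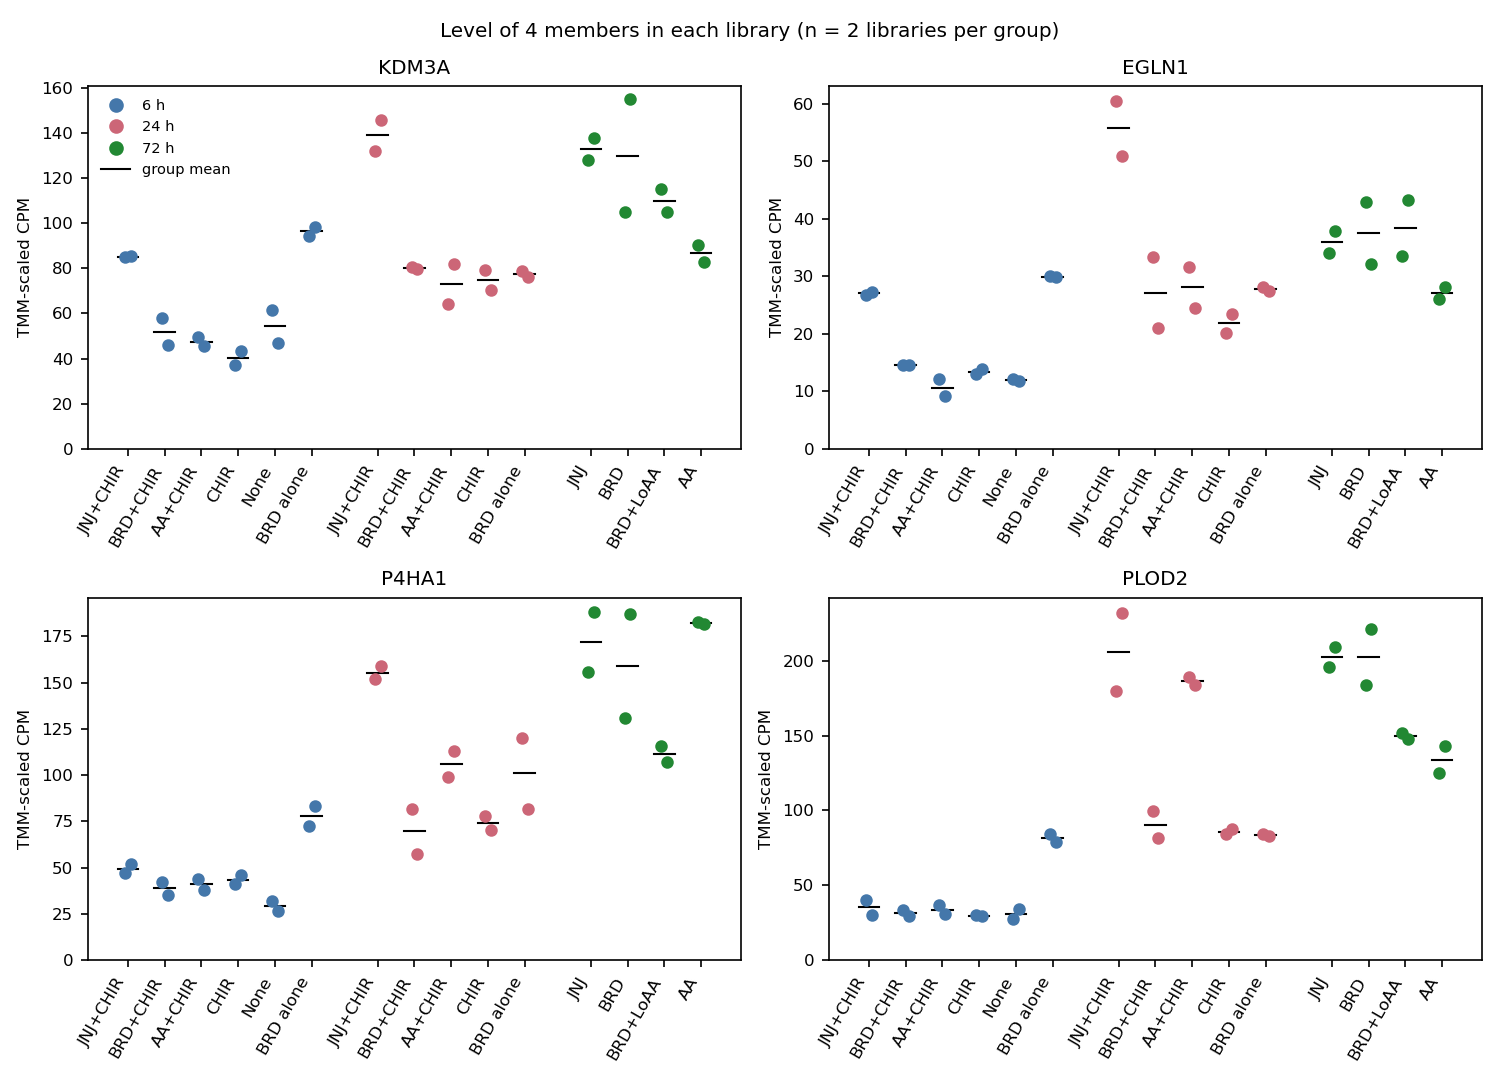
CPM (TMM scaled, linear axis) of KDM3A, EGLN1, P4HA1 and PLOD2 in each of the 30 bulk libraries; points are libraries and bars are group means over 2 libraries. At 24 h the JNJ+CHIR points of KDM3A, EGLN1 and P4HA1 lie above all other points of that time, while for PLOD2 the JNJ+CHIR and AA+CHIR points (180 to 232 and 184 to 189 CPM) lie together above the rest.

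PLOD2 at 24 h was called whichever library was left out. KDM3A lost its call without CHIR replicate 1 (adjusted p = 0.119), CHIR replicate 2 (adjusted p = 0.26) or JNJ+CHIR replicate 2 (adjusted p = 0.112), with log2 changes of 0.81 to 0.98. EGLN1 and P4HA1 lost theirs with any of the 4 libraries left out (adjusted p of 0.0838 to 0.386 and of 0.0713 to 0.323), with log2 changes of 1.22 to 1.47 and 0.99 to 1.14.

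No other member was called over CHIR at either time. By unadjusted p under 0.05, 10 of 33 members stood out at 24 h, beside 1382 of 15586 genes, and the 6 uncalled ones were all higher with JNJ. Among them KDM4B, a demethylase of lysine 9 of histone H3, had 90.4 and 83.1 CPM with JNJ+CHIR, against 51.4 and 53.4 CPM with CHIR (log2 0.73, adjusted p = 0.106). KDM6B, which demethylates lysine 27 of histone H3, had 120 and 109 CPM with JNJ+CHIR, against 74.8 and 79.2 CPM with CHIR (log2 0.57, adjusted p = 0.238). In both genes the JNJ libraries lay above the CHIR ones, which is no test with 2 libraries a group, and neither gene was called.

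**Figure D2:**
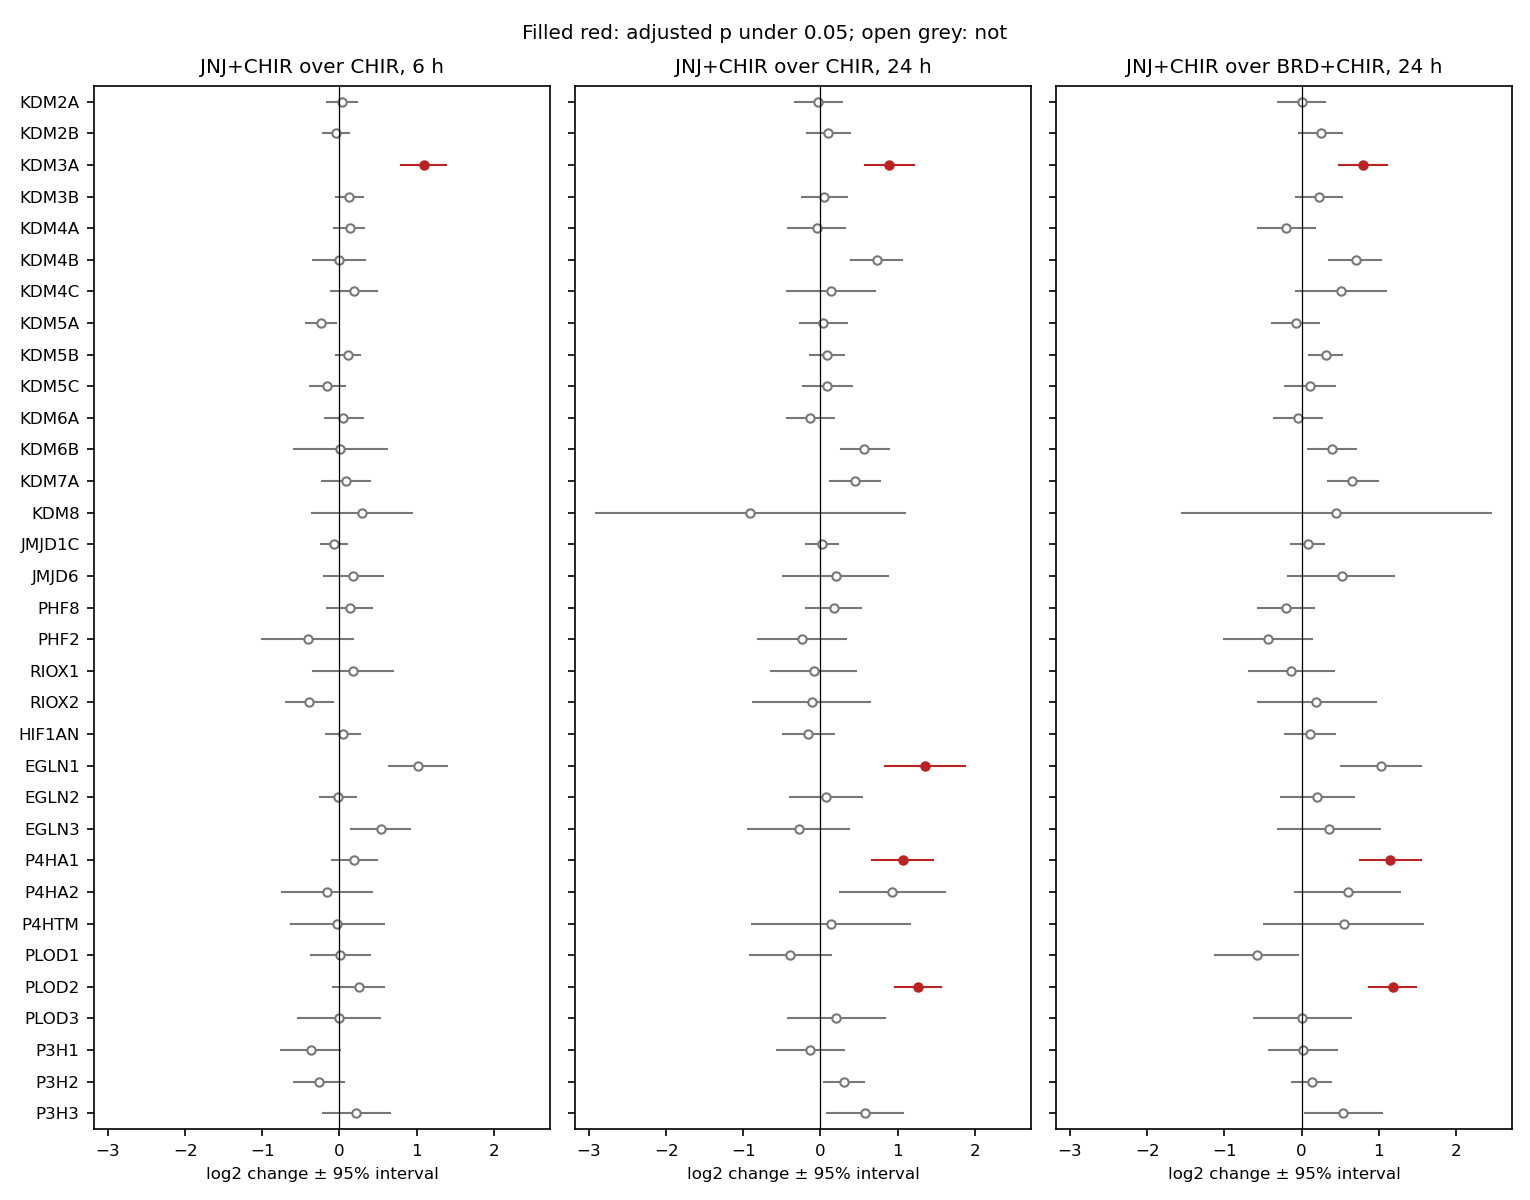
Log2 change with its 95% interval for every member tested, JNJ+CHIR over CHIR at 6 h, over CHIR at 24 h and over BRD+CHIR at 24 h; filled red points have an adjusted p under 0.05. At 24 h PLOD2, P4HA1 and KDM3A are filled in both panels and EGLN1 (log2 1.35 over CHIR and 1.03 over BRD+CHIR) in the first of them only.

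BRD is a second compound given in the same scheme, and setting JNJ+CHIR against BRD+CHIR uses the same JNJ libraries with other controls. At 24 h 3 of 33 members were higher with JNJ and none lower, where 0.18% of all genes were called. PLOD2 was 180 and 232 CPM with JNJ+CHIR and 99.6 and 81.5 CPM with BRD+CHIR (log2 1.19, SE 0.14, adjusted p = 0.00127). P4HA1 was 152 and 159 CPM with JNJ+CHIR and 81.9 and 57.5 CPM with BRD+CHIR (log2 1.15, SE 0.19, adjusted p = 0.0167). KDM3A stood at 132 and 146 CPM with JNJ+CHIR and at 80.5 and 79.5 CPM with BRD+CHIR (log2 0.8, SE 0.15, adjusted p = 0.0338). In all 3 the compounds' libraries were fully apart. EGLN1, at 60.5 and 50.9 CPM against 33.3 and 21 CPM with BRD+CHIR, missed the threshold (log2 1.03, SE 0.24, adjusted p = 0.147; DESeq2 0.0309).

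Leaving out a library ended the call of KDM3A in all 4 cases (adjusted p of 0.0759 to 0.28). It ended that of P4HA1 without BRD+CHIR replicate 2 or either JNJ+CHIR replicate (adjusted p of 0.06 to 0.26), and that of PLOD2 in none. At 6 h no member was called by edgeR, 3 had an unadjusted p under 0.05, and DESeq2 called 2, KDM3A (log2 0.71 in edgeR, adjusted p = 0.102) and EGLN1 (log2 0.9, adjusted p = 0.146). Over all genes, edgeR called 0.0202%, 815 of 14874 had an unadjusted p under 0.05, and DESeq2 called 12.

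BRD+CHIR over CHIR gave no call among these genes. No member was called at 6 h (1 by unadjusted p under 0.05) or at 24 h (2), and DESeq2 called none at either time. No gene of the table was called by edgeR (0% of genes), with 452 at 6 h and 738 at 24 h by unadjusted p under 0.05 and 1 and 17 called by DESeq2. The 24 h change of EGLN1 had an interval of -0.19 to 0.84, and those of KDM3A, PLOD2 and P4HA1 at that time were 0.09, 0.08 and -0.09 on the log2 scale.

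Activin A was set against CHIR in the same way. With AA+CHIR over CHIR at 24 h, where 2.86% of genes were called, PLOD2 and P3H2 were higher and JMJD1C lower, 3 of 33 members. PLOD2 stood at 189 and 184 CPM with AA+CHIR, against 84.1 and 87.6 CPM with CHIR (log2 1.12, SE 0.14, adjusted p = 0.000175). P3H2, a prolyl 3-hydroxylase that acts on basement membrane collagen, had 304 and 309 CPM with AA+CHIR, against 188 and 164 CPM with CHIR (log2 0.8, SE 0.12, adjusted p = 0.000822). KDM3A had 64.1 and 81.9 CPM with AA+CHIR and 79.4 and 70.6 CPM with CHIR, and the groups overlapped (log2 -0.04, interval -0.35 to 0.27).

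JMJD1C, a JmjC protein of the KDM3 family, had 183 and 166 CPM with AA+CHIR, against 251 and 271 CPM with CHIR (log2 -0.58, adjusted p = 0.00285). It was not called without AA+CHIR replicate 2 (adjusted p = 0.075) or CHIR replicate 2 (adjusted p = 0.0635). P4HA1 (log2 0.51, adjusted p = 0.202) and EGLN1 (log2 0.36, adjusted p = 0.566) were not called. At 6 h, where 1.49% of genes were called, no member was called by edgeR or DESeq2, and 6 of 33 had an unadjusted p under 0.05, beside 1615 of 14874 genes.

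Set directly against AA+CHIR at 24 h, JNJ+CHIR gave 4 members higher and 1 lower, where 4.67% of genes were called. KDM3A had 132 and 146 CPM with JNJ+CHIR and 64.1 and 81.9 CPM with AA+CHIR (log2 0.93, SE 0.15, adjusted p = 0.00101). KDM7A, which demethylates lysines 9 and 27 of histone H3, had 120 and 116 CPM with JNJ+CHIR and 64.7 and 58.9 CPM with AA+CHIR (log2 0.94, SE 0.15, adjusted p = 0.00135). JMJD1C was also higher with JNJ+CHIR (266 and 263 CPM against 183 and 166 CPM, log2 0.6, adjusted p = 0.00159). These 3 calls held with each library left out.

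EGLN1 was higher with JNJ+CHIR, at 60.5 and 50.9 CPM against 31.6 and 24.5 CPM with AA+CHIR (log2 0.99, SE 0.24, adjusted p = 0.0265). P3H2 was lower, at 204 and 232 CPM with JNJ+CHIR against 304 and 309 CPM with AA+CHIR (log2 -0.49, SE 0.12, adjusted p = 0.0247). Both lost their call without either AA+CHIR replicate or JNJ+CHIR replicate 1 (adjusted p of 0.0572 to 0.22). PLOD2, raised over CHIR in both arms, differed little between them (180 and 232 CPM with JNJ+CHIR, 189 and 184 CPM with AA+CHIR, log2 0.15, interval -0.15 to 0.44). P4HA1 was at 152 and 159 CPM with JNJ+CHIR and at 98.9 and 113 CPM with AA+CHIR (log2 0.55, adjusted p = 0.111, and 0.0387 in the fit over all libraries).

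At 6 h, JNJ+CHIR over AA+CHIR gave EGLN1 (log2 1.35, SE 0.19, adjusted p = 0.000414), KDM3A (log2 0.85, SE 0.14, adjusted p = 0.00212) and KDM4A (log2 0.45, SE 0.1, adjusted p = 0.0192) as higher and none as lower, where 1.38% of genes were called. EGLN1 stood at 26.7 and 27.3 CPM with JNJ+CHIR and at 12.1 and 9.14 CPM with AA+CHIR. KDM4A, another demethylase of lysine 9 of histone H3, had 134 and 131 CPM with JNJ+CHIR and 88.3 and 106 CPM with AA+CHIR. It was not called without AA+CHIR replicate 1 (adjusted p = 0.28), JNJ+CHIR replicate 1 (adjusted p = 0.133) or JNJ+CHIR replicate 2 (adjusted p = 0.0768), nor in the fit over all libraries (adjusted p = 0.19).

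Whether the JNJ effect over CHIR grew between 6 h and 24 h was tested as a difference of differences. PLOD2 came nearest (0.25 at 6 h, 1.26 at 24 h, difference 1.02, SE 0.21, adjusted p = 0.0713), followed by P4HA1 (difference 0.88, adjusted p = 0.244). For KDM3A the difference was -0.19 (adjusted p = 0.889) and for EGLN1 0.34 (adjusted p = 0.818). No member was called by edgeR, 7 of 34 had an unadjusted p under 0.05, and DESeq2 called 1. Over all genes, edgeR called 0.0559%, 1511 of 16098 had an unadjusted p under 0.05, and DESeq2 called 89.

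Genes beside these enzymes in the pathway were read from further lists that share no gene with the 34. These lists were also chosen with earlier results of these data known, so their counts are a description. The median log2 change of 39 HIF target genes was 0.78 with JNJ+CHIR over CHIR at 24 h, beside 0 for all genes. Where 0.154% of all genes were called, 9 of the 39 were higher and none lower. They included BNIP3 of mitophagy (719 CPM with JNJ+CHIR and 313 CPM with CHIR on average, log2 1.2, adjusted p = 0.000279), the hormone gene STC1 (73.5 and 20.5 CPM, log2 1.85, adjusted p = 0.000391) and the glucose transporter SLC2A1 (log2 0.82, adjusted p = 0.0025). Over BRD+CHIR 11 of the 39 were higher and none lower (median 0.73), where 0.18% of all genes were called. BRD+CHIR over CHIR gave none by edgeR or DESeq2, with 1 by unadjusted p under 0.05, beside 738 of 15586 genes. At 6 h 1 of 39 was higher with JNJ+CHIR over CHIR, the stress gene DDIT4 (log2 1.13, adjusted p = 0.00328), where 0.0202% of all genes were called.

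The other lists held few or no calls with JNJ+CHIR over CHIR at 24 h. There edgeR called 0.154% of all genes, and 1382 of 15586 had an unadjusted p under 0.05. Of 28 further 2-oxoglutarate oxygenases tested, such as the TET and ALKBH families, none was called over CHIR at 24 h by edgeR or DESeq2, and 5 had an unadjusted p under 0.05. The same held for 15 HIF subunits and regulators (none called by either tool, 1 by unadjusted p) and 27 histone methyltransferases and flavin demethylases (none called, 2 by unadjusted p). Of 31 collagens and partners of collagen hydroxylation, edgeR called none (5 by unadjusted p) and DESeq2 called 1, lower. Of 22 genes for the handling of 2-oxoglutarate, succinate, fumarate, iron and related metabolites, edgeR called none (2 by unadjusted p) and DESeq2 called 1, lower.

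The untreated cells give a baseline for CHIR itself. At 6 h CHIR over no factor gave P3H2 (log2 0.77, SE 0.16, adjusted p = 0.0097) and P4HA1 (log2 0.56, SE 0.14, adjusted p = 0.0368) as higher, 2 of 33 members, where 2.96% of genes were called. P3H2 had 39.8 and 39.7 CPM with CHIR, against 20.2 and 26.2 CPM without a factor. P4HA1 had 41.4 and 45.8 CPM with CHIR, against 32 and 26.8 CPM without. P3H2 kept its call only without None replicate 2, with adjusted p of 0.067 to 0.158 in the other 3 cases, and P4HA1 lost it in all 4 (0.0604 to 0.313).

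Over time the group changed widely, as did the table. Between 24 h and 6 h, 18 of 34 members were called with CHIR (12 higher and 6 lower, 37.4% of all genes called), 23 with AA+CHIR (16 and 7, 41.8%), 21 with JNJ+CHIR (14 and 7, 40.8%) and 19 with BRD+CHIR (12 and 7, 36.6%). The members' share was above that of all genes in each arm, and this difference was not tested. Over all genes, 2881 were higher and 3140 lower with CHIR, 3228 and 3501 with AA+CHIR, 3122 and 3443 with JNJ+CHIR, and 2844 and 3051 with BRD+CHIR. KDM6B, P3H2, PLOD2 and KDM7A were higher and JMJD1C lower at 24 h in all 4 arms. KDM3A, EGLN1 and P4HA1 were also called higher in all 4, so not with JNJ alone (log2 0.9, 0.7 and 0.77 with CHIR). Some of these calls of KDM3A and EGLN1 were lost with 1 library left out. P4HA3, the third catalytic subunit, is among the 6 lower ones with CHIR, but it rests on 11.3 and 2 counts at 6 h and 0 at 24 h.

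In CHIR cells KDM6B had 74.8 and 79.2 CPM at 24 h, against 10.4 and 13.2 CPM at 6 h (log2 2.7, adjusted p = 2.8e-11). P3H2 stood at 188 and 164 CPM at 24 h, against 39.8 and 39.7 CPM at 6 h (log2 2.15, adjusted p = 1.79e-12). JMJD1C was at 251 and 271 CPM at 24 h, against 500 and 552 CPM at 6 h (log2 -1.01, adjusted p = 1.7e-08). In these 3 genes no CHIR library of either time reached the values of the other time.

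RIOX2, a JmjC hydroxylase of a ribosomal protein, was lower at 24 h with CHIR (12.1 and 21.5 CPM against 51 and 48.3 CPM at 6 h, log2 -1.56, adjusted p = 8.4e-05). EGLN3, the PHD3 gene, was lower at 24 h with JNJ+CHIR (11.7 and 10.6 CPM against 28 and 27.1 CPM at 6 h, log2 -1.3, adjusted p = 0.000192). In the same cells EGLN1 was higher at 24 h (log2 1.04, adjusted p = 0.000222) and EGLN2 lower (log2 -0.66), so the HIF prolyl hydroxylases did not move together.

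With JNJ+CHIR the collagen enzymes that changed between 24 h and 6 h were mostly higher at 24 h. P3H2 had 204 and 232 CPM at 24 h, against 30.3 and 35.6 CPM at 6 h (log2 2.73), and PLOD2 180 and 232 CPM, against 40.1 and 30.4 CPM (log2 2.55). P4HA1 (log2 1.65), P3H3 (1.08), P4HA2 (0.98) and P3H1 (0.56) were higher as well, and PLOD1 was lower (log2 -0.64). P4HA2 lost its call without JNJ+CHIR 6 h replicate 1 (adjusted p = 0.171), PLOD1 without 6 h replicate 2 (0.346) or 24 h replicate 1 (0.148), and P3H1 with any library left out (0.0603 to 0.119).

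Among the JmjC genes of the same cells, KDM6B (log2 3.27), KDM7A (1.93), KDM4B (1.18), KDM5C (0.76), KDM3A (0.71), KDM5B (0.44) and KDM3B (0.39) were higher at 24 h, the KDM5 members being demethylases of lysine 4 of histone H3. RIOX2 (log2 -1.28), KDM4A (-1.02), JMJD1C (-0.92) and KDM8 (-1.7) were lower. KDM4A had 60.7 and 70.4 CPM at 24 h, against 134 and 131 CPM at 6 h. KDM3B lost its call without 6 h replicate 2 (adjusted p = 0.0719), and KDM8, at 1.92 to 8.94 CPM, without either 6 h replicate or 24 h replicate 2 (0.059 to 0.153).

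BRD without CHIR is the arm whose 6 h and 24 h libraries share a title series, and far fewer genes were called in it (11.7%). There 5 members were called between 24 h and 6 h, 4 higher and 1 lower. KDM6B had 9.03 and 10.7 CPM at 24 h, against 3.1 and 2.94 CPM at 6 h (log2 1.73, SE 0.24, adjusted p = 1.32e-05). P3H2 had 26.5 and 30.1 CPM at 24 h, against 14.6 and 13.8 CPM at 6 h (log2 1.01, SE 0.15, adjusted p = 3.37e-05). EGLN3, lower at 24 h in the BRD+CHIR arm (log2 -1.36), was higher at 24 h in BRD alone, with 49.9 and 47 CPM at 24 h, against 22.1 and 25 CPM at 6 h (log2 1.04, SE 0.25, adjusted p = 0.00639, and 0.0962 without BRD-alone 6 h replicate 1).

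RIOX2 was lower in BRD-alone cells at 24 h (log2 -1.24, adjusted p = 0.00444, and 0.0722 without 24 h replicate 2), and P4HA2, a second catalytic subunit, was higher (log2 1, adjusted p = 0.0412, lost with any of the 4 libraries left out at 0.0945 to 0.293). PLOD2 had 84.1 and 83 CPM at 24 h and 84.1 and 79 CPM at 6 h (log2 0.03, interval -0.27 to 0.33). TBXT, a primitive streak marker, averaged 0.0108 CPM in BRD-alone cells at 24 h, against 105 to 208 CPM in the groups with CHIR, and its part in these values was not tested.

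**Figure D3:**
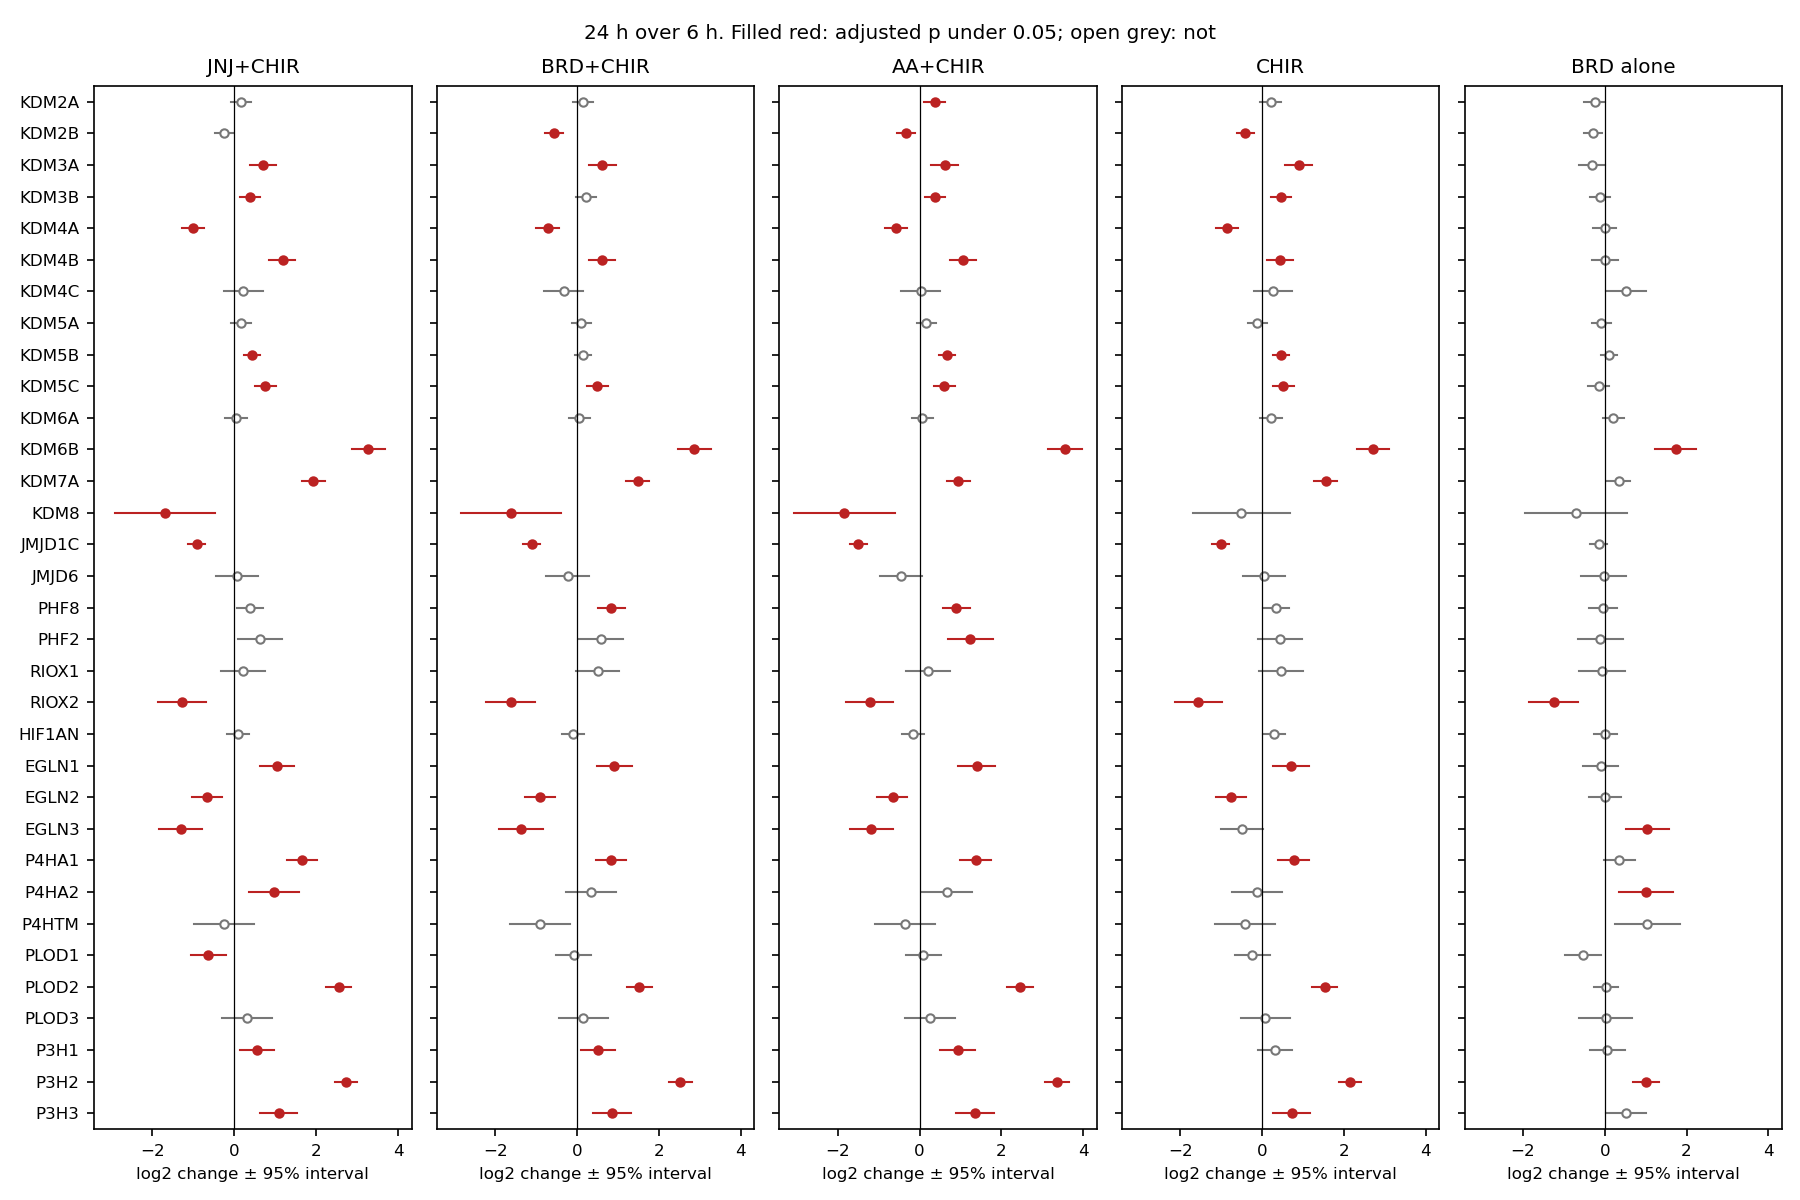
Log2 change of 24 h over 6 h with its 95% interval for 33 members (P4HA3 is left out), in JNJ+CHIR, BRD+CHIR, AA+CHIR, CHIR and BRD-alone cells; filled red points have an adjusted p under 0.05. KDM6B and P3H2 are higher at 24 h in every arm, with log2 1.73 and 1.01 in BRD alone and 2.7 and 2.15 in CHIR.

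Each arm was then followed from 24 h to its sorted cells at 72 h. The AA arm had 15 of 34 members called (7 higher and 8 lower at 72 h, 44.8% of all genes called), the JNJ arm 19 (5 higher and 14 lower, 44.2%) and the BRD arm 21 (11 higher and 10 lower, 44.3%). At 72 h the cells are sorted and at 24 h unsorted, so the sort, the stage and the title series cannot be told apart here. In the AA arm P3H2 had the largest rise among the called members, with 623 and 734 CPM at 72 h, against 304 and 309 CPM at 24 h (log2 1.15, adjusted p = 2.49e-08). KDM6A, the X-linked demethylase of lysine 27 of histone H3, had 191 and 178 CPM at 72 h, against 97.4 and 84.6 CPM at 24 h (log2 1.02, adjusted p = 2.74e-07). P4HA1 was higher as well (log2 0.78, adjusted p = 0.000667). P3H1 (log2 -1.28, adjusted p = 2.2e-05) and PLOD2 (log2 -0.48, adjusted p = 0.00823) were lower at 72 h.

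In the JNJ arm 14 of the 19 called members were lower at 72 h. Over all genes, 3519 were called higher and 3592 lower, and the difference from the members was not tested. KDM6B had 50.2 and 49.7 CPM at 72 h, against 120 and 109 CPM at 24 h (log2 -1.2, adjusted p = 4.18e-06). KDM2B, which targets lysine 36 of histone H3, had 76.4 and 73.2 CPM at 72 h, against 143 and 133 CPM at 24 h (log2 -0.88, adjusted p = 1.72e-07). EGLN1 had 34 and 37.8 CPM at 72 h, against 60.5 and 50.9 CPM at 24 h (log2 -0.63, adjusted p = 0.0148). KDM3A (log2 -0.06), P4HA1 (log2 0.15) and PLOD2 (log2 -0.02) were not called, and their libraries of the 2 times overlapped.

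The other members called in the JNJ arm between 72 h and 24 h were JMJD6, KDM2A, EGLN2, RIOX1, P3H3, PHF8, P3H1, PLOD3, KDM4A, KDM4C and KDM4B, lower by log2 values of -1.39 to -0.38, and KDM5A, PHF2, PLOD1, P3H2 and KDM3B, higher by 0.29 to 0.97. Leaving out 1 library gave 10 to 16 called members in place of 19. In the BRD arm PLOD2 (184 and 221 CPM at 72 h, 99.6 and 81.5 CPM at 24 h, log2 1.16, adjusted p = 2.35e-07) and P4HA1 (131 and 187 CPM at 72 h, 81.9 and 57.5 CPM at 24 h, log2 1.19) were higher at 72 h. KDM3A was higher there as well (105 and 155 CPM against 80.5 and 79.5 CPM, log2 0.7, adjusted p = 0.00067), but not without BRD 72 h replicate 2 (log2 0.39, adjusted p = 0.0782).

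**Figure D4:**
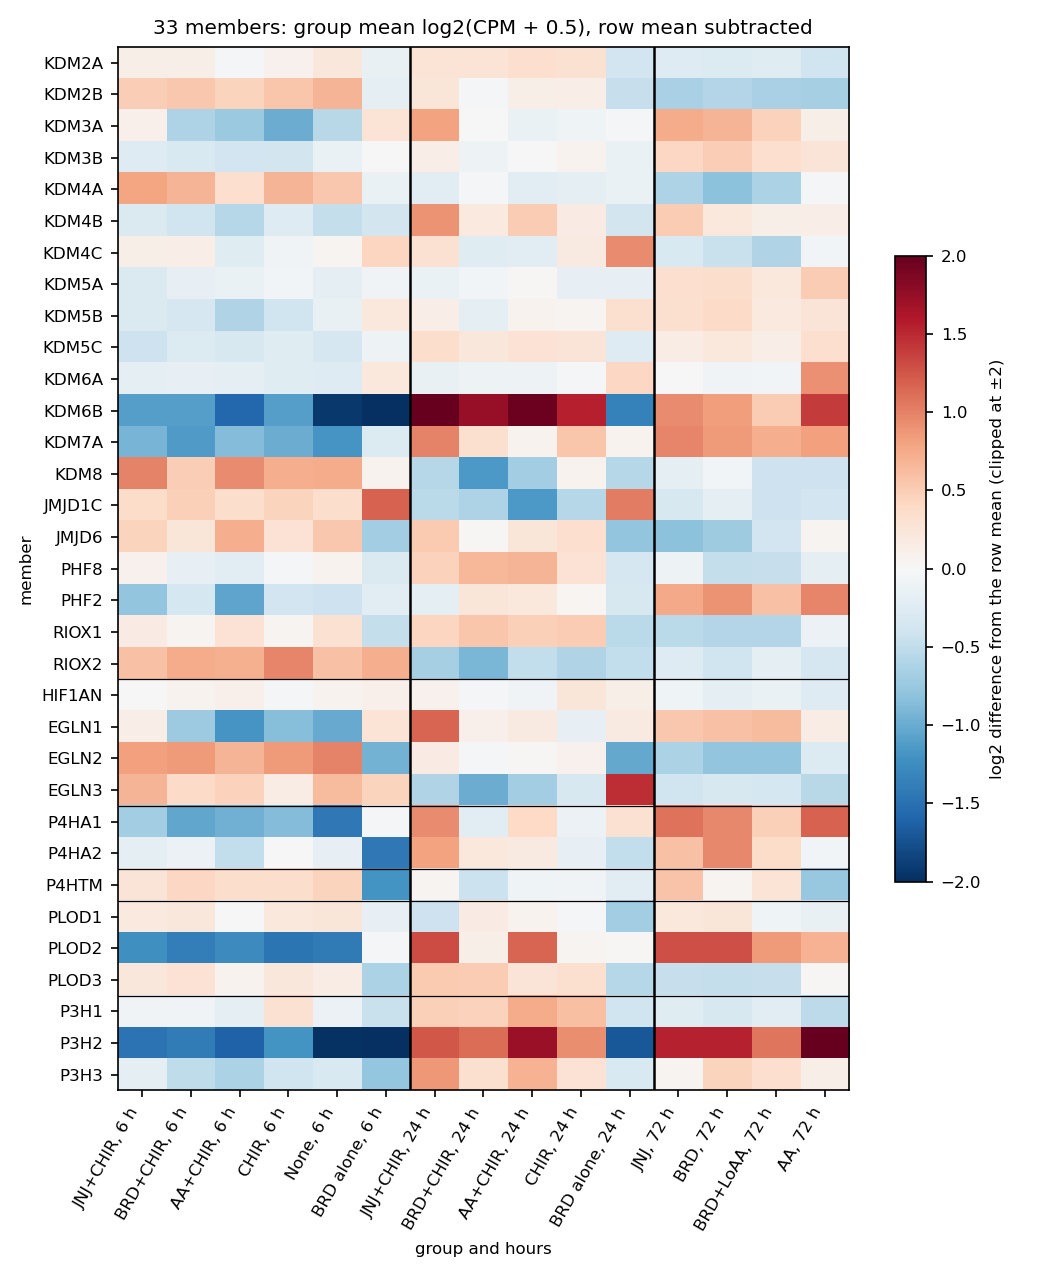
Group mean of log2(CPM + 0.5) over 2 libraries for 33 members in the 15 bulk groups, each row centred on its mean and clipped at 2 in either direction. P4HA3, at 0 to 1.42 CPM throughout, is left out. KDM6B, P3H2 and PLOD2 are low in the 6 h columns and high from 24 h on in the arms with CHIR, and JMJD1C is high in the 6 h columns and in BRD alone (761 to 884 CPM).

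Among sorted 72 h cells, JNJ was set against Activin A to ask how alike the endoderm of the arms is. With JNJ over AA 3 members were higher and 5 lower of 33, where 18.5% of genes were called. P3H2 had 296 and 246 CPM in the JNJ arm, against 623 and 734 CPM in the AA arm (log2 -1.34, SE 0.14, adjusted p = 3.5e-05). KDM6A had 98.9 and 94.4 CPM in the JNJ arm, against 191 and 178 CPM in the AA arm (log2 -0.95, SE 0.13, adjusted p = 0.000195). The arms did not overlap in either gene.

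P4HTM, a transmembrane prolyl 4-hydroxylase of the endoplasmic reticulum, was higher with JNJ, at 12.2 and 12.9 CPM against 4.71 and 4.69 CPM with AA (log2 1.4, SE 0.3, adjusted p = 0.00581). These 3 calls stood whichever library was left out. PLOD2 had 196 and 209 CPM in the JNJ arm, against 125 and 143 CPM in the AA arm (log2 0.58, SE 0.13, adjusted p = 0.00807, and 0.0942 without AA replicate 1). KDM3A had 128 and 138 CPM in the JNJ arm, against 90.5 and 82.7 CPM in the AA arm (log2 0.6, SE 0.17, adjusted p = 0.0224). Its call was lost without AA replicate 1, AA replicate 2 or JNJ replicate 2 (adjusted p of 0.0786, 0.128 and 0.0995).

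KDM4A was lower with JNJ, at 48.5 and 51.3 CPM against 78.8 and 71.4 CPM with AA (log2 -0.61, SE 0.14, adjusted p = 0.00843), though not without AA replicate 1 (0.104) or JNJ replicate 1 (0.06). KDM6B (log2 -0.48, adjusted p = 0.0309) and JMJD6, a lysyl hydroxylase of nuclear proteins (log2 -0.9, adjusted p = 0.0421), were lower as well, and lost their call with any of the 4 libraries left out and in DESeq2 (adjusted p of 0.065 and 0.0847). EGLN1 (34 and 37.8 CPM with JNJ, 26.1 and 28.1 CPM with AA, log2 0.39, adjusted p = 0.211) and P4HA1 (156 and 188 CPM with JNJ, 183 and 182 CPM with AA, log2 -0.1, adjusted p = 0.732) were not called.

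BRD over AA gave 3 members higher and 4 lower, where 21.3% of genes were called. This comparison shares its AA libraries with the one above. P3H2 (248 and 289 CPM with BRD, log2 -1.35, adjusted p = 2.92e-05), KDM6A (92.3 and 94.1 CPM with BRD, log2 -1, adjusted p = 0.000119) and KDM4A (40.7 and 45.8 CPM with BRD, log2 -0.81, adjusted p = 0.00115) were lower than with AA, with every library left out in turn. KDM6B was lower too (log2 -0.59, adjusted p = 0.00992). It was not called without AA replicate 1, AA replicate 2 or BRD replicate 1 (adjusted p of 0.0708 to 0.0918).

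PLOD2 (184 and 221 CPM with BRD, log2 0.58, adjusted p = 0.00733), P4HA2 (23.6 and 30.4 CPM with BRD, 12.8 and 13.2 CPM with AA, log2 1.05, adjusted p = 0.00975) and KDM3A (105 and 155 CPM with BRD, log2 0.57, adjusted p = 0.0262) were higher with BRD. Without BRD replicate 2, the higher KDM3A library, its log2 change was 0.27 (adjusted p = 0.288). PLOD2 and P4HA2 lost their call without BRD replicate 2 (adjusted p of 0.0685 and 0.0726) or AA replicate 1 (0.0852 and 0.0792), and P4HA2 also without AA replicate 2 (0.0518). KDM3A lost it without either AA replicate too (0.0826 and 0.13).

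BRD+LoAA over AA gave 1 member higher and 5 lower, where 19.4% of genes were called. P3H2 (194 and 193 CPM with BRD+LoAA, log2 -1.81, adjusted p = 3.14e-06), KDM6A (87.6 and 101 CPM with BRD+LoAA, log2 -0.97, adjusted p = 0.000168) and KDM6B (37.7 and 36.2 CPM with BRD+LoAA, 68.7 and 69.7 CPM with AA, log2 -0.9, adjusted p = 0.000754) were lower and held with each library left out. P4HA1 had 116 and 107 CPM with BRD+LoAA, against 183 and 182 CPM with AA (log2 -0.71, adjusted p = 0.00785). It lost its call without either AA replicate or BRD+LoAA replicate 2 (adjusted p of 0.0547 to 0.0699).

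KDM4A was lower with BRD+LoAA (log2 -0.62, adjusted p = 0.00784), though not without AA replicate 1 (0.0995) or BRD+LoAA replicate 2 (0.0569). P4HTM was higher (log2 1.09, adjusted p = 0.0245), a call lost with any of the 4 libraries left out (0.0725 to 0.12). PLOD2 (log2 0.16, adjusted p = 0.433), KDM3A (log2 0.35, adjusted p = 0.173) and EGLN1 (log2 0.5, adjusted p = 0.104) were not called.

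JNJ and BRD were also compared directly at 72 h. No member was called by edgeR or DESeq2, and none had an unadjusted p under 0.05. Over the whole table edgeR called 0 genes (0%), 390 had an unadjusted p under 0.05 and DESeq2 called 4. The 95% intervals of the difference were -0.32 to 0.38 for KDM3A, -0.49 to 0.36 for EGLN1, -0.24 to 0.45 for P4HA1 and -0.28 to 0.29 for PLOD2. At 24 h the same compounds with CHIR had differed by 1.19 in PLOD2 and 1.15 in P4HA1, and the difference between the times was not tested.

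**Figure D5:**
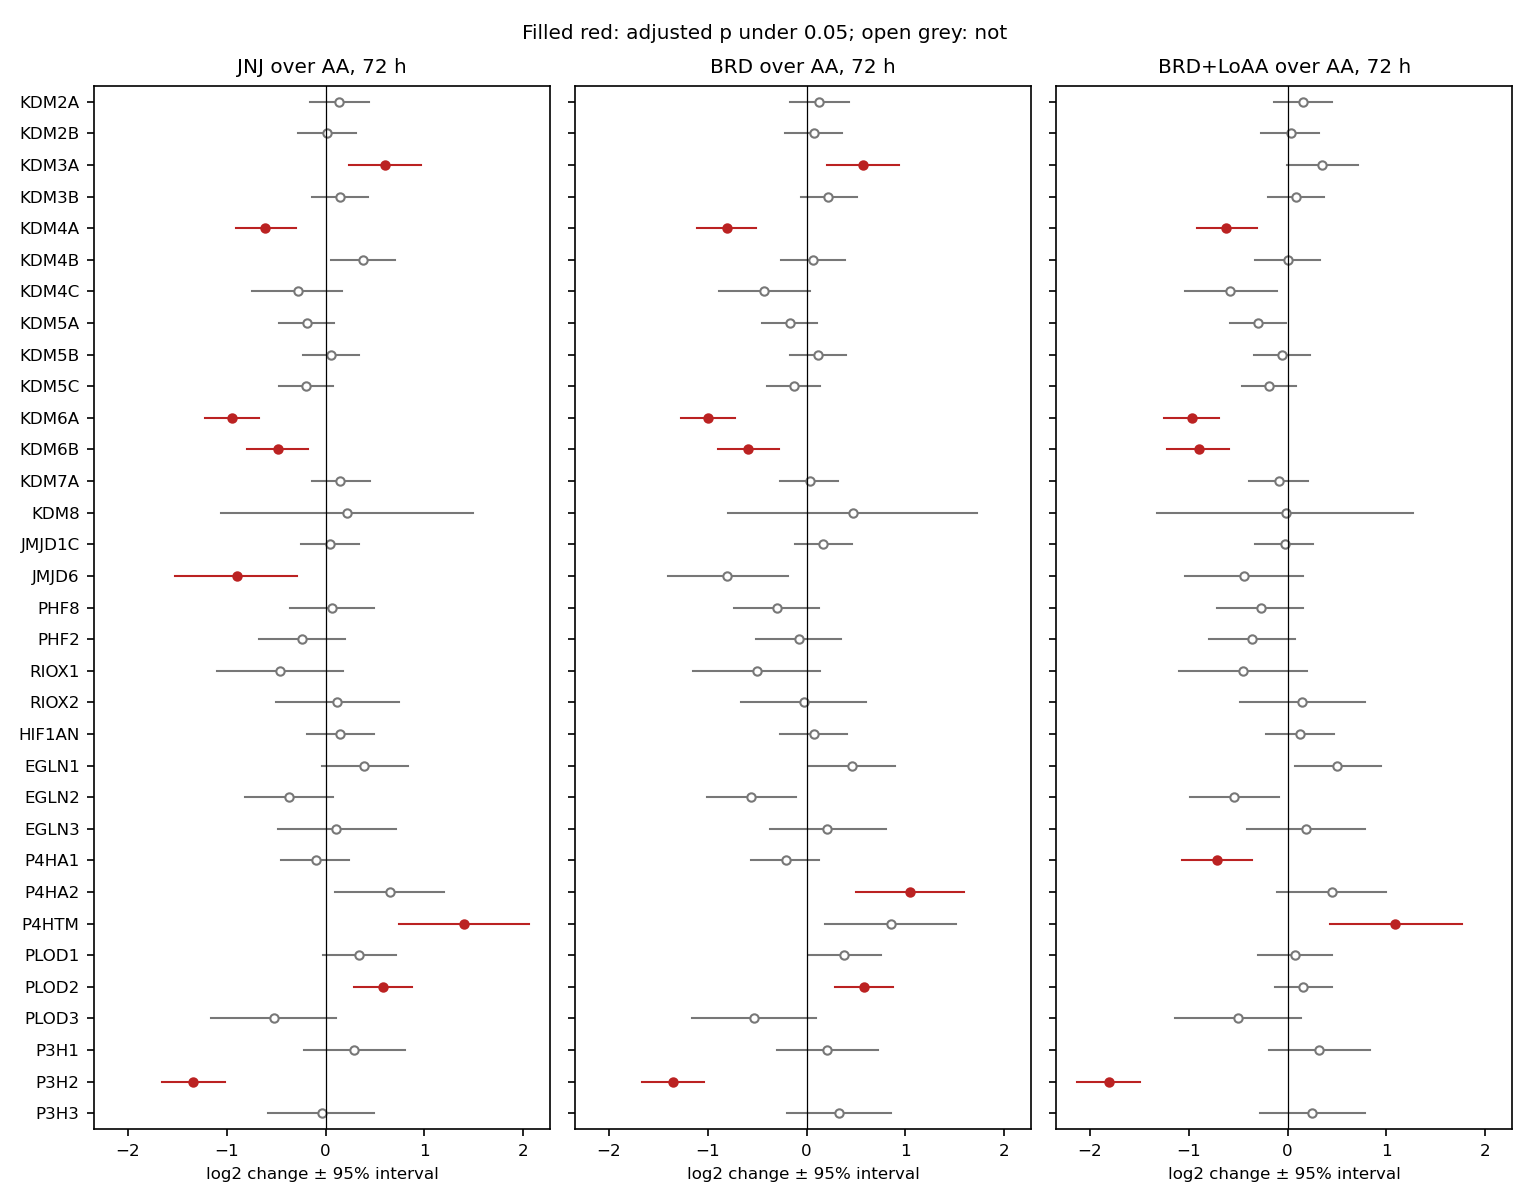
Log2 change with its 95% interval for every member tested at 72 h, for JNJ, BRD and BRD+LoAA over AA; filled red points have an adjusted p under 0.05. P3H2 (log2 -1.34, -1.35 and -1.81) and KDM6A (-0.95, -1 and -0.97) are filled and negative in all 3 panels.

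The sorted arms differed in other cell type markers. GATA3 averaged 124 to 140 CPM in the compound arms, against 5.64 CPM in the AA arm. POU5F1 averaged 117 to 149 CPM in them, against 57.9 CPM with AA, and the endoderm gene CER1 67.8 to 97.6 CPM, against 4060 CPM. Of 8 endoderm markers, 3 were higher and 4 lower with JNJ over AA. With BRD 2 were higher and 4 lower, and with BRD+LoAA 2 and 5. Of 5 pluripotency markers 2 were higher with JNJ and none lower, 2 and 1 with BRD, and 3 and none with BRD+LoAA. Of 6 primitive streak markers 1 was higher and 3 lower with JNJ, 1 and 4 with BRD, and 1 and 3 with BRD+LoAA. GATA3 is from a list of 5 extra-embryonic markers, of which only 2 were tested at 72 h. In each compound arm 1 of these 2 was higher than with AA and none lower. The shares of all genes called were 18.5%, 21.3% and 19.4%. The part of these markers in the 72 h differences was not tested. Of the HIF targets 14 of 35 tested were higher and 3 lower with JNJ over AA, where 18.5% of all genes were called. Their median log2 change was 0.39 beside 0.01 for all genes. HK2, of glycolysis, was among the higher ones (log2 1.71) and STC1 among the lower ones (log2 -5.55).

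The 36 h and endoderm cells had received AA+CHIR and then AA, and the mesoderm cells a commercial mesoderm medium. The libraries held 4193 (36 h), 4511 (72 h endoderm) and 5632 (72 h mesoderm) cells and 77.2 M, 33.8 M and 45.1 M UMIs after filtering, with 50 to 56 cell barcodes shared between any pair of libraries. With 1 library each there is no test, and the intervals (exact Poisson, 95%) cover counting error only. SOX17 stood at 122 CPM in the endoderm library and had 0 UMIs in the other two. P3H2 stood at 137 CPM in endoderm (133 to 141), at 27.7 CPM in mesoderm (26.2 to 29.3) and at 13.2 CPM at 36 h (12.4 to 14.1). KDM6B was also highest in endoderm, at 29.9 CPM (28.1 to 31.8), against 14.2 CPM in mesoderm (13.1 to 15.3).

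EGLN1 was highest in mesoderm, with 14.9 CPM, against 4.79 CPM in endoderm and 2.32 CPM at 36 h. PLOD2 had 37.6 CPM in mesoderm (35.8 to 39.4), 28.4 CPM in endoderm (26.6 to 30.2) and 4.75 CPM at 36 h. P4HA1 stood at 64.9 CPM in mesoderm (62.6 to 67.3), at 56.2 CPM in endoderm (53.7 to 58.8) and at 16.1 CPM at 36 h (15.3 to 17.1). KDM3A had 9.11 CPM in mesoderm (8.25 to 10), 5.8 CPM in endoderm (5.02 to 6.67) and 5.14 CPM at 36 h (4.65 to 5.67), and the last 2 intervals overlap.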

How the data were processed

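The authors deposited un-normalized expected counts, with fractions, of 16103 genes in 30 libraries; the submitters' processing notes list Salmon 1.4.0, limma 3.48.1, edgeR 3.34.0, Seurat 4.0.2 and GRCh38 with no role stated. The single-cell matrices, as deposited, are raw UMI counts made with Cell Ranger 3.0.2 per the file headers. Members and gene lists were chosen with earlier results of these data known.

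Values were rounded to whole counts. The test was edgeR 4.0.16 in R 4.3.3 (filterByExpr with a count minimum of 10, TMM, quasi-likelihood F-test, two-sided, Benjamini-Hochberg), in 1 fit per time for comparisons within it (6, 5 and 4 residual degrees of freedom, 33 members tested) and 1 over all libraries between times (15 degrees, 34 members). P4HA3 passed the filter only there. Steps were tested on simulated data. Alternatives were DESeq2 1.42.0, RLE scaling, no filter, robust dispersion, a replicate block, other sets of libraries and leaving out each library. The plan was to name in full the 4 genes shown with promoters and the members called in a JNJ comparison. Elsewhere up to 8 called members of smallest p were planned. In the comparisons between times, and in some within a time, only part of these are given with values. Cells under 500 genes or over 10% mitochondrial UMIs were dropped; doublets were not called. An aggregate matrix was not used.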

Additional observations from a re-analysis of the deposited data

Results flagged for a closer look

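Changes over time that differed between arms were tested as a difference of 2 log2 changes in the edgeR fit over all libraries, chosen after seeing the data and adjusted over all genes. Of 34 members, 14 differed between BRD+CHIR and BRD alone in their change from 6 h to 24 h (9 higher and 5 lower with CHIR, 21.6% of all genes called). The genes whose change was greater with CHIR were P3H2 (1.52), PLOD2 (1.49, adjusted p = 6.41e-06), KDM6B (1.15), KDM7A (1.14), EGLN1 (1.01), KDM3A (0.94), PHF8 (0.88), KDM5C (0.65) and KDM4B (0.61). EGLN3 (-2.4), P4HTM (-1.94), JMJD1C (-0.95), EGLN2 (-0.91) and KDM4A (-0.71) had the lower change with CHIR. Leaving out 1 of the 8 libraries in turn, KDM4B lost its call in 5 fits, EGLN2 in 3, KDM5C in 2, and KDM6B, EGLN1 and P4HTM in 1 each (adjusted p of 0.0532 to 0.27), while the other 8 members kept theirs. The BRD+CHIR libraries of the 2 times come from title series 33 and 38 and the BRD-alone libraries from series 46 at both, so CHIR and title series cannot be told apart in these values.

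From 24 h to 72 h the JNJ arm differed from the AA arm in 6 members, all lower (10.6% of all genes called): JMJD6 (-1.15), KDM6A (-0.89, adjusted p = 0.00151), P3H2 (-0.83), KDM7A (-0.77), KDM4A (-0.59, adjusted p = 0.0495) and JMJD1C (-0.55). Over all genes, 837 were higher and 869 lower in this comparison. JMJD6 was called in 3 and KDM4A in 2 of the 8 fits with 1 library left out, and JMJD1C in 5 (adjusted p of 0.0635 to 0.202 in the others), while KDM6A, P3H2 and KDM7A were called in all 8. The BRD arm differed from the AA arm in 4 members (10.7%), with PLOD2 higher (1.63, adjusted p = 2.57e-06) and KDM4A (-0.99), KDM6A (-0.99) and P3H2 (-0.72) lower. P3H2 lost this call without AA 72 h replicate 2 (adjusted p = 0.0602) or BRD 72 h replicate 1 (0.0528), and the other 3 were called in all 8 fits. The AA libraries are shared by the 2 comparisons.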

How the results depend on the processing

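With 2 libraries a group, calls near the threshold depended on single libraries and on the tool. With 1 library left out, 777 of the named members' values kept direction and side of the threshold, 207 lost a call and 12 uncalled ones turned their sign. Under the other settings, 1669 kept both, 47 lost and 10 gained a call, and 3 uncalled ones turned their sign. Sizes moved as well: without BRD replicate 2, KDM3A was at 0.27 in place of 0.57 for BRD over AA and at 0.39 in place of 0.7 for the BRD arm between 72 h and 24 h. No scaling moved the median of all genes by over 0.1. Where a cause is not part of a setting, it was not tested. Same-numbered libraries showed weak correlations (-0.06 to 0.03 at 6 h, -0.03 to 0.03 at 24 h and -0.16 to 0.17 at 72 h). At 72 h 1 of 6 pairs was over 0.1. This check cannot tell whether such libraries share a culture or a batch. The replicate block gave 1 called member in place of 2 for CHIR over no factor at 6 h, P4HA1 losing its call (adjusted p = 0.0505).

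Members called under other settings were as follows. DESeq2 gave 2 for JNJ+CHIR over CHIR and 2 over BRD+CHIR at 6 h, 6 over BRD+CHIR at 24 h and 1 for the JNJ effect between times. Robust dispersion gave 2, 1 and 1 for the first, second and last of these. The mean of CHIR and BRD+CHIR as control gave 2 at 6 h, the fit over all libraries 6 over BRD+CHIR at 24 h, leaving out BRD alone 1 for CHIR over no factor, and fitting only 24 h and 72 h libraries 3 for the JNJ arm against the AA arm.

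Genes called with DESeq2 were 9, 12 and 340 for JNJ+CHIR over CHIR, BRD+CHIR and AA+CHIR at 6 h, 146, 138 and 1183 at 24 h, 1 and 17 for BRD+CHIR over CHIR at 6 h and 24 h, 729 for AA+CHIR over CHIR at 24 h, 4 for JNJ over BRD and 89 for the JNJ effect. With the fit over all libraries they were 186 for CHIR over no factor, 91 for AA+CHIR over CHIR at 6 h and 1157 at 24 h, 1 and 102 for JNJ+CHIR over BRD+CHIR and AA+CHIR at 6 h, 286, 256 and 1822 over CHIR, BRD+CHIR and AA+CHIR at 24 h, 26 for BRD+CHIR over CHIR at 24 h and 1 for JNJ over BRD. Robust dispersion gave 6 and 6 for JNJ+CHIR over CHIR and BRD+CHIR at 6 h, 38 over CHIR at 24 h, 1 for JNJ over BRD and 14 for the JNJ effect. No filter gave 7 for JNJ+CHIR over BRD+CHIR at 6 h and 4 for JNJ over BRD. Without BRD alone, 55 and 49 were called for JNJ+CHIR over CHIR and BRD+CHIR at 24 h, and with the mean of CHIR and BRD+CHIR as control 7 at 6 h and 41 at 24 h. Only the libraries of the times compared gave 1 for the JNJ effect, 1121 for the JNJ arm against the AA arm and 1125 for the BRD arm.

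Leaving out each library in turn, members called ranged from 1 to 2 for JNJ+CHIR over CHIR at 24 h, 0 to 1 at 6 h, 1 to 2 over BRD+CHIR at 24 h, 2 to 3 over AA+CHIR at 6 h and 3 to 5 at 24 h, 3 to 5 for JNJ over AA, 3 to 6 for BRD over AA, 3 to 5 for BRD+LoAA over AA, 0 to 2 for CHIR over no factor, 0 to 1 and 2 to 3 for AA+CHIR over CHIR at 6 h and 24 h, 3 to 4 for BRD alone, 10 to 13, 10 to 16 and 15 to 23 for the AA, JNJ and BRD arms between 72 h and 24 h, 0 to 1 for the JNJ effect, 10 to 14 for BRD+CHIR against BRD alone, and 3 to 6 and 3 to 5 for the JNJ and BRD arms against AA. Genes called ranged from 11 to 31, 0 to 5, 9 to 27, 0 to 5, 100 to 178 and 374 to 612 for JNJ+CHIR over CHIR at 24 h and 6 h, BRD+CHIR at 24 h and 6 h and AA+CHIR at 6 h and 24 h, 0 to 4 and 1 to 4 for BRD+CHIR over CHIR, 65 to 155 and 203 to 260 for AA+CHIR over CHIR, 208 to 268 for CHIR over no factor, 1420 to 1807, 1607 to 2326, 1348 to 1802 and 0 to 3 for JNJ, BRD and BRD+LoAA over AA and JNJ over BRD, 903 to 1192 for BRD alone, 0 to 143 for the JNJ effect, and 2457 to 3280, 1109 to 1894 and 1111 to 1576 for the 3 differences between arms.

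The values whose sign turned were all uncalled, and ranged as follows with 1 library left out. PLOD2 ranged from -0.05 to 0.34 for JNJ+CHIR over BRD+CHIR at 6 h, and from -0.14 to 0.25 at 6 h and -0.05 to 0.32 at 24 h over AA+CHIR. P4HA1 ranged from -0.23 to 0.03 for JNJ over AA. For JNJ over BRD the ranges were -0.21 to 0.33 (KDM3A), -0.27 to 0.17 (EGLN1), -0.11 to 0.38 (P4HA1) and -0.11 to 0.13 (PLOD2, which was 0 with DESeq2, RLE scaling or no filter).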
